A study of Mus musculus with 6 samples.

Results

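Interferon-stimulated genes are the genes that cells switch on when an interferon, a secreted alarm protein against viruses and other microbes, binds its receptor. A list of 37 of them was followed here, and 35 were measured among the 18193 genes on the array. A member was counted as measured where the platform annotation gave a probe set that symbol and no other. Where a gene had several such probe sets, the brightest over the 6 arrays stood for it. The expression of Ifi44 was not analysed here, and neither was that of Isg15, because the annotation lists it together with another gene. Both appear only in the promoter search.

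The cells were purchased mesenchymal stem cells of the mouse, stromal cells from which fat, bone or cartilage can arise. The experiment was done 3 times. Each time 1 culture received 2 h of a continuous laser at 2.52 THz (a wavelength of 118.8 µm, in the far infrared), and 1 control culture stood next to it without exposure. Both groups were held at 26 to 27 °C and both carried the same 4 compounds, 1 µM rosiglitazone, 5 µg/ml insulin, 100 µM 3-isobutyl-1-methylxanthine and 1 µM dexamethasone, given again 48 h before exposure. The labels do not name the mouse strain, age or sex. No culture without the compounds, at another temperature or treated with an interferon was compared, so the list has no positive control here. RNA was taken directly after exposure, and each culture was read on 1 array. The question of the comparison is whether exposure to terahertz radiation moved the interferon programme relative to the control of the same experiment.

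Type I interferons signal through the kinases Jak1 and Tyk2 to a complex that contains Stat2 and Irf9 and binds a DNA element called the interferon-stimulated response element. Type II interferon acts on another element, the gamma-activated sequence. The induced proteins include the Ifit and Oas families, which sense or block viral RNA, the guanylate-binding and immunity-related GTPases, which attack the compartments of intracellular microbes, and feedback regulators such as Usp18. Dexamethasone, present in all 6 cultures, is a glucocorticoid, a class of compounds known to dampen inflammatory gene expression.

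The response element was searched as GAAA, any 2 bases and GAAA again, and the gamma-activated sequence as TTCNNNGAA, each on both strands, in RefSeq promoter windows of the GRCm38.p6 build that run from 250 bases before to 50 bases after a gene's start. For 28 members a window was found, 32 windows in all. The response element was present in 16 of the 28 (57.1%), against 3.99% of all 27025 genes with a window and 3.44% of all 32851 windows. The gamma-activated sequence was present in 8 of the 28 (28.6%), against 9.55% of all genes and 8.30% of windows. A match that overlapped a match of the other motif counted for both. The stretches below are shown because they belong to 3 neighbouring guanylate-binding protein genes whose arrays are compared below, to other members that were lower in all 3 experiments and held the response element before their start (Igtp, Rsad2 and Ifit1), and to textbook targets of type I interferon (Ifit3 and Isg15). Each is written 5′ to 3′ on the strand of its gene, with the matches to either motif in capitals.
Gbp7, chr3:142530218-142530304, plus strand: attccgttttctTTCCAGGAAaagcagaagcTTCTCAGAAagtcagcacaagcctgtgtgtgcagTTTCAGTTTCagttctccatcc
Gbp3, chr3:142559987-142560026, plus strand: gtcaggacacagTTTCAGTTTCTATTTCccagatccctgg
Gbp2, chr3:142620592-142620625, plus strand: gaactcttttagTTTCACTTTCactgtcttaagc
Igtp, chr11:58199499-58199543, plus strand: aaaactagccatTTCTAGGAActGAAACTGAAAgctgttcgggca
Rsad2, chr12:26456551-26456584, minus strand: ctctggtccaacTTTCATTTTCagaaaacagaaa
Ifit1, chr19:34640773-34640825, plus strand: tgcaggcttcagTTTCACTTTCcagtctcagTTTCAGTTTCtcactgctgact
Ifit3, chr19:34583361-34583428, plus strand: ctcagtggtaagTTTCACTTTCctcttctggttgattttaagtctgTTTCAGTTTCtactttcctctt
Isg15, chr4:156200863-156200908, minus strand: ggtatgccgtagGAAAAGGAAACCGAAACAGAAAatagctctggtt

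The 3 guanylate-binding protein genes held the response element close to their starts, with the first match beginning 53 bases before the start in Gbp7, 45 in Gbp3 and 59 in Gbp2. Of these 3 promoter stretches that of Gbp7 also held the gamma-activated sequence, at 106 and 87 bases before the start. Isg15 had 3 overlapping matches to the response element, the first at 78 bases. In Ifih1, Trim21 and Eif2ak2 the first match lay after the start, at 32, 13 and 18 bases. Of other members that were lower in all 3 experiments, Tap1 had 0 matches to either motif in its window and Ifi35 1 match to the gamma-activated sequence, after its start. Bst2, Irgm1, Oas1a, Oas3 and Stat2, mixed in sign over the experiments, also held the response element before their start. Cmpk2, higher in all 3 experiments, had 0 matches to either motif. These matches are descriptions of letters in a window, and binding was not measured.

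The values are log2 expression levels made with RMA, a method that gives all arrays the same overall distribution. Array medians lay between 5.01 and 5.04 over all probe sets. Over the genes used here they lay between 6.41 and 6.5, with the irradiated array of experiment 1 at 6.43 and its control at 6.5. The control of experiment 3 stood apart in the built-in RNA quality probe sets. Its actin level was higher at the 3′ than at the 5′ end by 0.68 log2 units, against 0.50 to 0.57 on the other 5 arrays, and for Gapdh the same difference was 0.11, against -0.10 to -0.08. Differences with and without experiment 3 are given for the whole list, its role groups and the lists that make up the rest of the pathway. They are also given for the members with the largest differences.

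Markers were used to check the labelled cell type. Of 11 measured mesenchymal stromal markers 10 lay at or above the level of the median gene (6.46), while Thy1, a usual stromal surface marker, stood at 3.88. All 7 measured fat cell markers were above it. So were 10 of 11 macrophage markers, among them Lyz2 at 14.17, Csf1r at 12.78 and the pan-leukocyte gene Ptprc at 9.82, so that transcripts typical of macrophages, cells that respond strongly to interferon, were bright in cultures labelled as stromal. Markers of T, NK and B cells (0 of 8) and endothelium (0 of 5) did not reach the median gene, and of plasmacytoid dendritic cells, the main producers of type I interferon in the body, 1 of 4 did. In bulk RNA of this kind more cells of a type and more RNA per cell cannot be told apart.

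No interferon-stimulated gene passed the test of irradiated against control cultures, and most differences were small and below 0. limma with the experiment as a block and Benjamini-Hochberg adjustment over all 18193 genes called 0 of 35 members, with 0% called over all genes, and every member had an adjusted p of 0.995. The mean difference, irradiated minus control, was -0.063 ± 0.049 log2 units (SD over n = 3 experiments) and the median over members was -0.067, against a mean of -0.0074 and a median of -0.010 over all genes. Of the 35 members 27 had a mean difference below 0 (77.1%), against 53.3% of all genes. At an unadjusted p under 0.05 in limma 2 members were lower, Gbp7 and Usp18, where 1.89% of all genes were, and 0 were higher, where 1.42% of all genes were. For 33 of the 35 the 95% confidence interval of the difference stayed inside 1.5-fold up or down, as it did for 17884 of all 18193 genes. The exceptions among the members were again Gbp7 and Usp18.

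The difference was not of the same size in the 3 experiments. The list averaged -0.042 in experiment 1, -0.029 in experiment 2 and -0.12 in experiment 3, with 22, 17 and 25 of 35 members below 0. Of all 18193 genes 10252, 9121 and 8816 were below 0 in the same experiments. Without experiment 3 the list mean was -0.036, with 24 members below 0. Without experiment 1 it was -0.074 and without experiment 2 it was -0.081. Without experiment 3 the sign turned for Irf9 (from -0.043 to 0.09), Oas1a (from -0.017 to 0.035), Dtx3l (from -0.013 to 0.025) and Dhx58 (from 0.043 to -0.05), and Bst2 went from -0.047 to 0. In a fit without the block that left out only the control of experiment 3 the mean was -0.037 and 23 members lay below 0.

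That control array was the highest of the 6 for many members. It was alone the highest in 14 of 35 members (40%), where 15.6% of all genes had their highest value on it. On average it lay 0.084 log2 units above the members' 6-array means, and 27 of 35 members were above their mean there. The other 5 arrays averaged between -0.040 and 0.0094. Over all genes the same array averaged -0.0054, and the 6 arrays lay between -0.0071 and 0.0093. Whether the RNA quality of this array had a part in the high values was not tested. At the other end the irradiated array of experiment 1 was the lowest on average, at -0.040, and alone the lowest in 11 of 35 members (31.4%), against 18.3% of all genes. Macrophage markers shared this lowest array but not the highest. They averaged -0.36 on the irradiated array of experiment 1, 0.075 on the control of experiment 3 and 0.28 on the irradiated array of experiment 3, which was the highest of the 6 for them. In experiment 1 all 11 measured macrophage markers were lower in the irradiated culture, with a mean difference of -0.17. Their summed level ran from 116.25 to 123.29 on irradiated and from 118.10 to 121.00 on control arrays. Their part in the differences of the list was not tested.

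**Figure D1:**
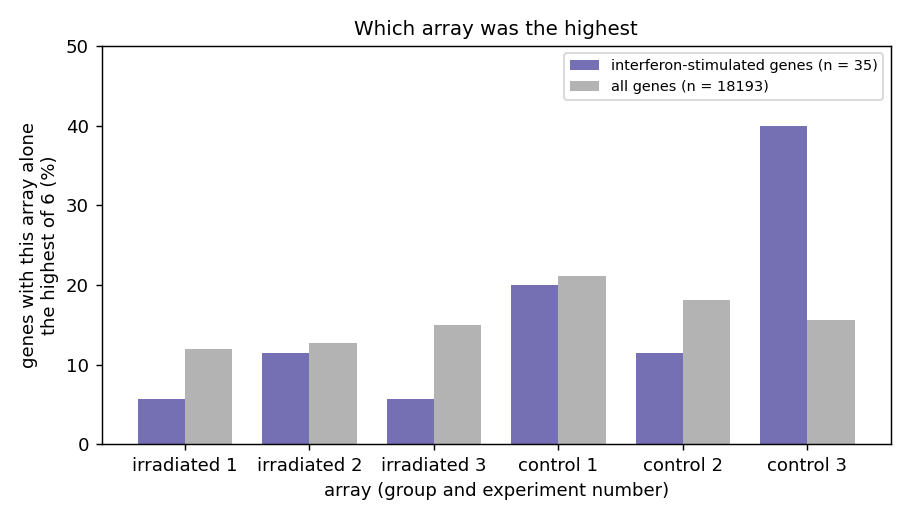
Share of genes (%) for which each array alone held the highest of the 6 values, for the 35 interferon-stimulated genes (purple) and all 18193 genes (grey). The control of experiment 3 was the highest in 40% of the members and in 15.6% of all genes, while the irradiated arrays of experiments 1 and 3 were each the highest in 5.71% of the members.

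The brighter members lay further below 0 than the dimmer ones. The 18 members at or above the median gene level averaged -0.097 ± 0.095 (SD over 3 experiments), with 17 of 18 below 0 (94.4%), and stood at -0.12, 0.0061 and -0.18 in experiments 1 to 3. All genes at or above that level averaged -0.016, with -0.049 in experiment 1, and 58.2% of them were below 0. Without experiment 3 the brighter members averaged -0.056, with 13 below 0. The 17 dimmer members averaged -0.027, with 10 below 0, and stood at 0.039, -0.066 and -0.055 in experiments 1 to 3. Leaving out experiment 3 put them at -0.0135. For 10 of the 18 brighter members (55.6%) the control of experiment 3 was alone the highest array, against 18.1% of all genes at that level, as it was for 4 of the 17 dimmer ones.

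Of the 35 members 8 were lower in all 3 experiments (22.9%), namely Gbp7, Usp18, Ifih1, Tap1, Igtp, Rsad2, Ifi35 and Ifit1, against 12.8% of all genes. The 4 that were higher in all 3 (11.4%), Cmpk2, Mx2, Oas2 and Mx1, stood against 8.23% of all genes. The count of members lower in every experiment kept was 14 without experiment 1 (all genes 24.3%), 17 without experiment 2 (all genes 25.8%) and 10, or 28.6%, without experiment 3 (all genes 27.6%). With the third experiment left out, the share of members that were lower in both others was thus close to the background. In 4 members all 3 irradiated arrays lay below all 3 controls (11.4%), Usp18, Rsad2, Gbp7 and Ifih1, against 5.36% of all genes, and in 0 members they lay above, against 2.90%. Counts of this kind without 1 experiment were 11 without experiment 1 (all genes 17.2%), 11 without experiment 2 (all genes 15.8%) and 6, or 17.1%, without experiment 3 (all genes 18.7%).

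**Figure D2:**
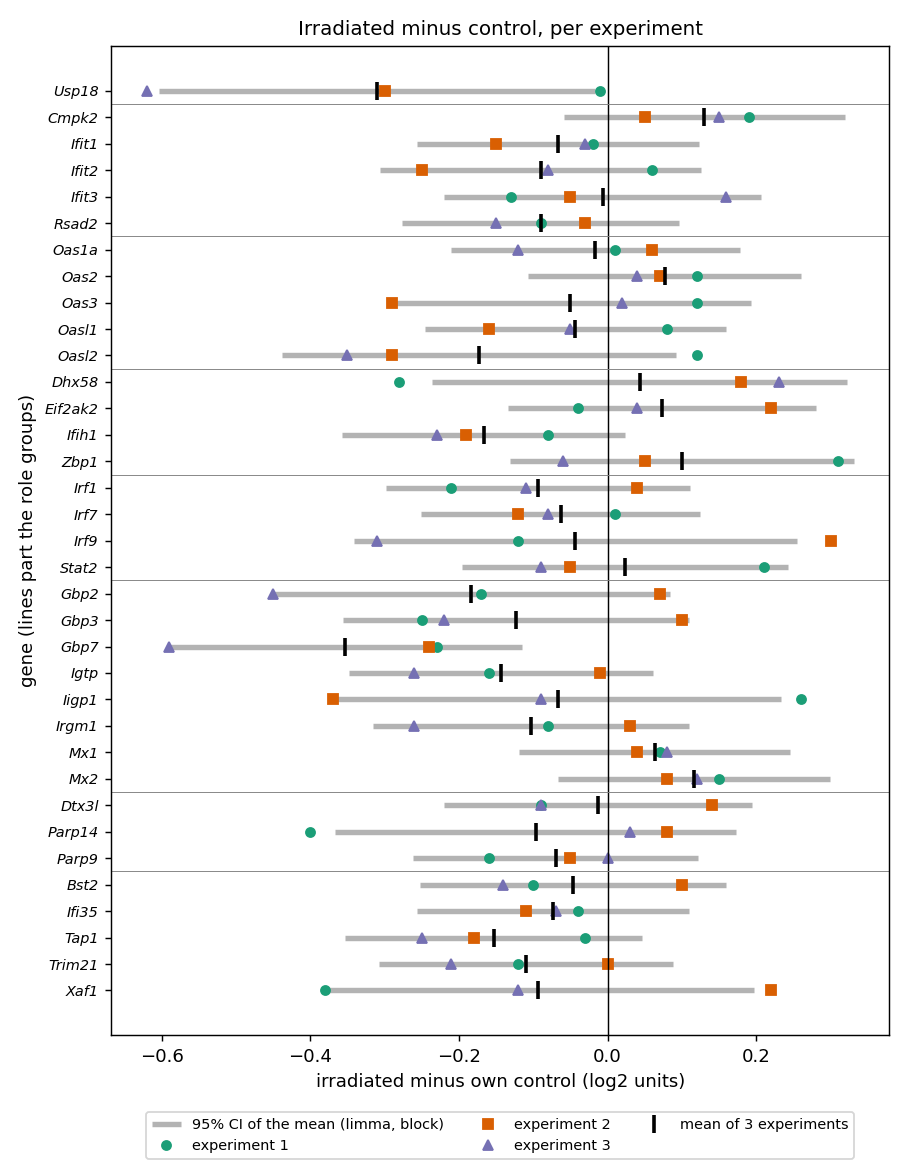
Irradiated minus own control (log2 units) for each of the 35 members, with 1 symbol per experiment, a black tick for the mean of the 3 experiments and a grey bar for its 95% confidence interval from limma with the experiment as a block. Apart from Gbp7 and Usp18 the means lie between -0.18 and 0.13, and the intervals of these 2 genes alone leave out 0, without adjustment for the number of genes.

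The guanylate-binding proteins are GTPases that coat the vacuoles of intracellular microbes. Gbp7 had the largest difference of all members. Its levels were 6.68, 6.83 and 6.78 on the irradiated arrays and 6.91, 7.07 and 7.37 on the controls of experiments 1 to 3. The irradiated arrays were all below the controls, and the highest value was the control of experiment 3. The difference was -0.35 log2 units (SE 0.10, 95% interval -0.59 to -0.11), a ratio of 0.783, with an unadjusted p of 0.0103 and an adjusted p of 0.995 in limma. Without experiment 3 it was -0.235. A dimmer probe set of Gbp7, at a level of 6.21, was lower by less and also in every experiment, by -0.20, -0.13 and -0.13.

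Gbp2 and Gbp3 lie next to Gbp7 on chromosome 3, with 1 other protein-coding gene between Gbp3 and Gbp2. Gbp2 was at 8.38, 8.23 and 7.97 on irradiated and at 8.55, 8.16 and 8.42 on control arrays, so the groups overlapped, and the lowest value was the irradiated culture of experiment 3. Its difference was -0.18 (SE 0.11; -0.17, 0.07 and -0.45 in experiments 1 to 3), but -0.05 without experiment 3 and -0.31 without experiment 2. Its second probe set followed with -0.29, 0.11 and -0.30. The probe set that stood for Gbp2 is of a type that can also read related transcripts. Gbp3 stood at -0.25, 0.10 and -0.22, with a mean of -0.12 that was -0.075 without experiment 3. Both Gbp2 and Gbp3 were thus above 0 in experiment 2, where Gbp7 was below 0 by 0.24.

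The immunity-related GTPases strip or guard the same vacuoles. Igtp, also known as Irgm3, was at 6.80, 6.98 and 7.0 on irradiated and 6.96, 6.99 and 7.26 on control arrays. Its difference was -0.14 (SE 0.086), nearly all of it in experiments 1 and 3, and the groups overlapped. Without experiment 3 it was -0.085. Irgm1, a regulator of the other GTPases of this family, was at 7.57, 7.49 and 7.57 against 7.65, 7.46 and 7.83, with the control array of experiment 3 above the other 5. Its difference was -0.10 (SE 0.089) and, without experiment 3, -0.025. Iigp1, an effector GTPase that breaks vacuole membranes, was bright at a mean of 10.48 and changed sides between experiments. It was at 10.48, 10.47 and 10.38 on irradiated arrays, within 0.10 of each other, and at 10.22, 10.84 and 10.47 on controls. Its difference was -0.067 (SE 0.13; 0.26, -0.37 and -0.09), and the second probe set gave 0.42, -0.37 and -0.23. The spread of Iigp1 was therefore among the control cultures.

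Mx1 and Mx2, dynamin-like GTPases that block viruses, stood on the other side of 0 in all 3 experiments. Mx2 differed by 0.15, 0.08 and 0.12 (mean 0.12, SE 0.077) at a level of 4.62, and Mx1 by 0.07, 0.04 and 0.08 at 2.90, well below the median gene. As a group the 8 GTPases averaged -0.099 ± 0.095 (SD over 3 experiments), with 6 below 0, and at -0.21 experiment 3 was the furthest from 0. Without experiment 3 the group averaged -0.044. The control of experiment 3 lay 0.15 above their 6-array means.

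**Figure D3:**
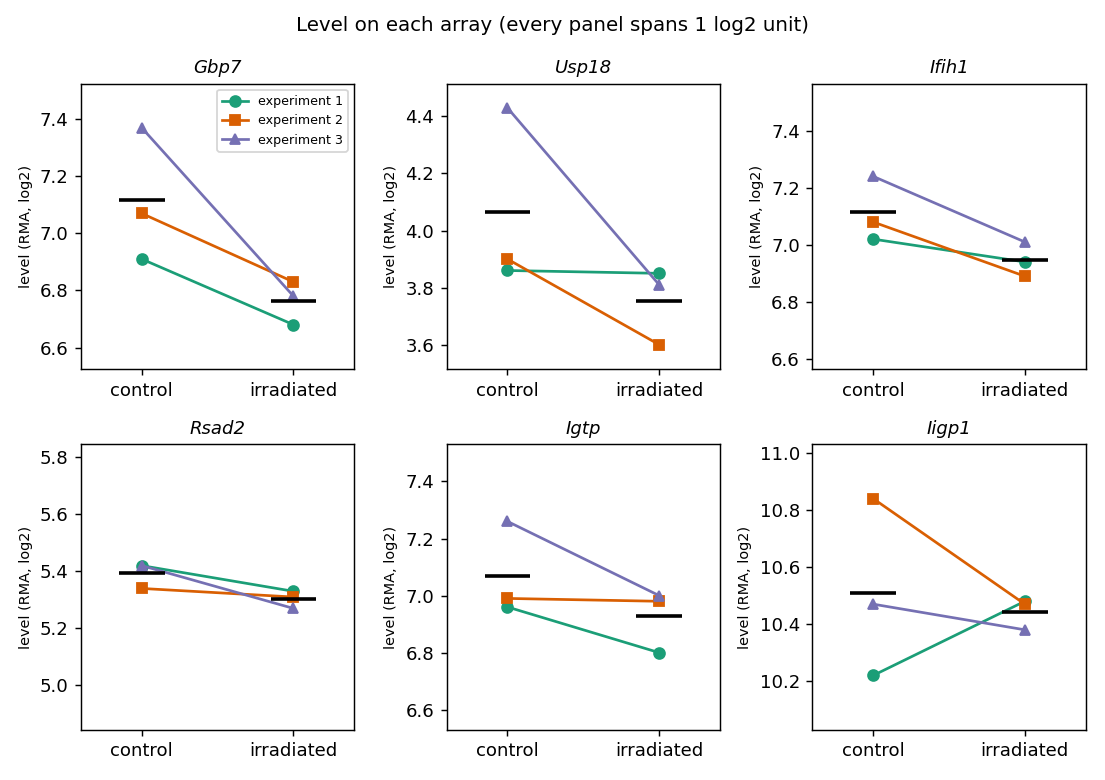
Level (RMA, log2) of 6 members in control and irradiated cultures, with a line per experiment and a black bar for each group's mean; every panel spans 1 log2 unit. In Gbp7, Usp18, Ifih1 and Rsad2 the irradiated arrays lie below all controls, the control of experiment 3 stands out in Gbp7, Usp18 and Igtp, and Iigp1 varies among controls.

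Usp18 removes the ubiquitin-like protein Isg15 from its targets and blocks the type I interferon receptor as a feedback inhibitor. It had the widest range of the list, 0.83 log2 units, at a low level of 3.91. The irradiated arrays were at 3.85, 3.60 and 3.81 and the controls at 3.86, 3.90 and 4.43. The groups did not overlap, but in experiment 1 they were apart by 0.01, and the control of experiment 3 lay 0.52 above the gene's mean. The difference was -0.31 (SE 0.12, 95% interval -0.60 to -0.017), with an unadjusted p of 0.0412 and an adjusted p of 0.995 in limma. Without experiment 3 it was -0.155.

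Sensors of foreign nucleic acid differed from each other. Ifih1, or MDA5, which detects long double-stranded RNA, was at 6.94, 6.89 and 7.01 on irradiated and at 7.02, 7.08 and 7.24 on control arrays. The groups touched without overlapping, and the difference was -0.17 (SE 0.080, unadjusted p 0.0769 in limma), or -0.135 without experiment 3. Dhx58, or LGP2, a helper of the RNA sensors, stood at -0.28, 0.18 and 0.23. Eif2ak2, or PKR, a kinase that stops translation when it binds double-stranded RNA, stood at -0.04, 0.22 and 0.04, while its other probe sets, at levels of 6.95 and 6.71, had means below 0. Zbp1, which senses Z-form nucleic acid and starts cell death, stood at 0.31, 0.05 and -0.06. No sensor passed, and the mean of the 4 was 0.012, or 0.021 without experiment 3.

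The Ifit proteins, which bind foreign RNA ends, and viperin, the product of Rsad2, were dim, and all 5 genes of this group lay below the median gene. Rsad2, whose enzyme makes a chain-terminating nucleotide, was at 5.33, 5.31 and 5.27 on irradiated and at 5.42, 5.34 and 5.42 on control arrays. The groups did not overlap, but the whole range over the 6 arrays was 0.15, and the difference was -0.09 (SE 0.078). Of its dimmer probe sets that at a level of 3.73 was below 0 in every experiment, and that at 3.50 stood at -0.04, 0.11 and -0.49. Cmpk2, a nucleotide kinase and the direct neighbour of Rsad2 on chromosome 12, was on the other side of 0 in every experiment. It was at 4.28, 4.15 and 4.04 on irradiated and 4.09, 4.10 and 3.89 on control arrays, a difference of 0.13 (SE 0.079). Leaving out experiment 3 gave 0.12. A dimmer probe set of Cmpk2, at a level of 3.32, stood at 0.32, 0.04 and -0.12. Ifit1 differed by -0.067, Ifit2 by -0.090 and Ifit3 by -0.0067, each with an SE of at least 0.079. The 5 genes of the group averaged -0.025, or -0.042 without experiment 3.

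The Oas enzymes make short adenylate chains that switch on RNase L, and the Oas-like genes Oasl1 and Oasl2 are their relatives. Oas1a was the only one of the 5 above the median gene, at 8.20, 8.41 and 8.32 on irradiated and 8.19, 8.35 and 8.44 on control arrays, and its groups overlapped almost fully (difference -0.017, SE 0.081). Mouse Oas1 genes are a set of near copies, and a probe set of 1 can read others. Oasl2 had the largest difference of the family, -0.17 (SE 0.11), at a level of 3.27. It was at 3.25, 3.07 and 3.24 on irradiated and 3.13, 3.36 and 3.59 on control arrays, higher after exposure in experiment 1 and lower in the other experiments. Its difference was -0.085 without experiment 3 and -0.32 without experiment 1. Oas2 stood at 0.12, 0.07 and 0.04, Oas3 at 0.12, -0.29 and 0.02 and Oasl1 at 0.08, -0.16 and -0.05. All 5 were above 0 in experiment 1. Their mean over the experiments was -0.041, or -0.016 without experiment 3.

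Among the 4 transcription factors of the list no difference reached 0.10 log2 units on the probe sets that stood for them. They averaged -0.044, or 0.0075 without experiment 3. Irf1, an early factor in the response to type II interferon, was at 8.69, 8.86 and 8.81 on irradiated and at 8.90, 8.82 and 8.92 on control arrays, with a difference of -0.093 (SE 0.086) and groups that overlapped in experiment 2. Irf9 and Stat2, partners in the complex that binds the response element, stood at -0.043 (SE 0.12) and 0.023 (SE 0.092). A dimmer probe set of Stat2, at a level of 4.38, stood at -0.42, 0.17 and -0.29, a mean of -0.18. Irf9 moved by -0.12, 0.30 and -0.31 in the 3 experiments, so its spread was larger than its mean. Irf7, which amplifies type I interferon production, was at -0.063 (SE 0.079). On all 4 the control of experiment 3 was above the gene's mean, and in Irf1, Irf9 and Stat2 it was the highest array.

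Parp9, Dtx3l and Parp14 are neighbours on chromosome 16. Parp9 and Dtx3l form a complex that modifies histones and supports interferon signalling, and Parp14 is an ADP-ribosyltransferase. All 3 were above the median gene and had means below 0, at -0.070, -0.013 and -0.097, and experiment 1 gave the lowest value for Parp9 (-0.16) and Parp14 (-0.40). Dtx3l stood at -0.09, 0.14 and -0.09. A second probe set of Dtx3l, at a level of 6.615, was below 0 in every experiment, at -0.38, -0.12 and -0.09 (mean -0.20). A much dimmer one of Parp14, at 3.48, stood at 0.20, -0.04 and 0.30 (mean 0.15). On the probe sets that stood for the 3 genes, experiment 3 was close to 0, with a mean of -0.020, and both arrays of that experiment were above the 6-array mean. The group averaged -0.060, or -0.080 without experiment 3.

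On the probe sets that stood for them, the remaining effectors lay above the median gene, from Xaf1 at 6.79 to Ifi35 at 10.18, and all 5 had means below 0. They averaged -0.095, or -0.064 without experiment 3. Ifi35 was at 10.07, 10.15 and 10.21 on irradiated and 10.11, 10.26 and 10.28 on control arrays, lower in every experiment by at most 0.11, with overlapping groups (difference -0.073, SE 0.077). Its other probe sets, at 8.33 and 7.96, were less even. Bst2, or tetherin, which holds budding virus at the cell surface, was at 8.19, 8.44 and 8.37 on irradiated and 8.29, 8.34 and 8.51 on control arrays (difference -0.047, SE 0.086). Tap1, a subunit of the peptide pump that loads MHC class I, was at 7.44, 7.27 and 7.16 on irradiated and 7.47, 7.45 and 7.41 on control arrays. Its 3 controls lay within 0.06 of each other and the irradiated values spread below them, with an overlap at 7.44 (difference -0.15, SE 0.084; -0.105 without experiment 3). A dimmer probe set of Tap1, at 4.65, stood at 0.57, 0.22 and -0.21, and with all probe sets averaged the gene was at 0.011, on the other side of 0. Trim21, an antibody receptor inside cells, was at -0.11 and Xaf1, which promotes cell death, at -0.093. Each also had a dimmer probe set above 0, at 0.13 for Trim21 (level 5.96) and 0.063 for Xaf1 (level 3.94).

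**Figure D4:**
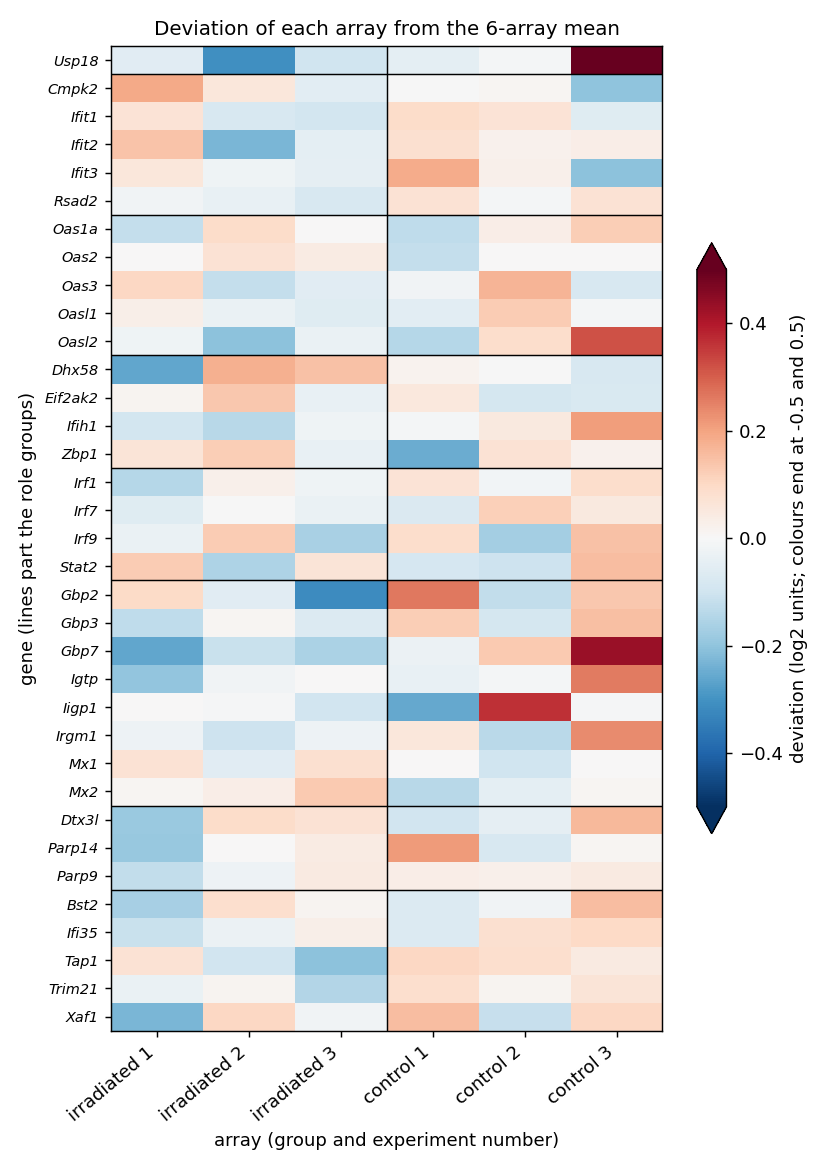
Deviation of each array from the 6-array mean of a gene (log2 units, red above and blue below) for the 35 members in their role groups, irradiated arrays on the left and controls on the right. The control of experiment 3 is red in 27 of 35 rows, with Usp18 and Gbp7 the furthest above their means, and the other columns are mixed.

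Other probe sets of the members gave a weaker picture. The 35 members were read by 56 probe sets, and 15 members had more than 1. The 21 probe sets not used above had a mean difference of -0.027, 13 of them lay below 0, and 12 had the sign of the probe set that stood for the gene. Their median level was 4.38, below the median gene. Of all 56 limma with Benjamini-Hochberg over 45037 probe sets called 0, with 2 at an unadjusted p under 0.05. The same fit called 0 of all 45037 probe sets, and 1696 of them had an unadjusted p under 0.05.

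The rest of the interferon pathway was read from a list of 102 genes, of which 81 were measured, and 0 passed. On this list 52 genes had a mean below 0 and 28 above, and the median was -0.023. Of the 81 genes 54 lay at or above the median gene level. Of all genes at that level 58.2% were below 0, and of all genes 53.3%. Interferons themselves were dim. All 9 measured ligands lay below the median gene and their mean difference was 0.067, with Ifng, the type II interferon of lymphocytes, at 0.29, 0.29 and 0.24 at a level of 2.64 and Ifna9 at 0.36, -0.08 and 0.29. The unadjusted p of Ifng in limma was 0.00977, at an adjusted p of 0.995. The mean of the 9 ligands was 0.024 without experiment 3. Receptors and kinases averaged -0.0097 over 10 genes, and Stat3, a factor of many cytokines, had the largest difference at -0.20 (SE 0.099), followed by the type III receptor subunit Ifnlr1 at 0.13 (SE 0.095). Of these 10 genes 9 lay at or above the median gene, and their mean was -0.0095 without experiment 3.

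Genes of sensing and induction averaged -0.031 over 16 genes, or -0.073 without experiment 3. Of these 16 genes 11 were below 0, against 53.3% of all genes. The largest differences were those of Ticam1, the adaptor of Toll-like receptor 3 (-0.19, SE 0.088), and Tlr7, a receptor for single-stranded RNA (0.17, SE 0.11). The inhibitors averaged 0.011 over 9 genes, or 0.0017 without experiment 3. Their largest differences ran in opposite directions. Socs3 was at 0.19, 0.27 and 0.17 at a level of 10.03, and Socs1 at -0.18, -0.25 and -0.16 at a level of 4.41. Both encode feedback inhibitors of Jak kinases, and their unadjusted p values in limma were 0.0319 and 0.0400, with adjusted p values of 0.995.

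Of the 37 measured interferon-induced genes outside the list, 28 were below 0 (75.7%, against 53.3% of all genes) and 8 above. Their mean was -0.049 ± 0.063 (SD over 3 experiments), with -0.076, 0.022 and -0.094 in experiments 1 to 3. Without experiment 3 it was -0.027, with 23 below 0. Irgm2, a regulatory GTPase of the Igtp family, had the largest difference of all measured pathway genes. It stood at -0.15, -0.38 and -0.69, a mean of -0.41 (SE 0.11, unadjusted p 0.0101 and adjusted p 0.995 in limma). Among these 37 genes the chemokine Cxcl9 came next, at -0.26, -0.35 and -0.01, at a low level of 4.30. These genes were measured on the same 6 arrays as the members and are no independent evidence.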

How the data were processed

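RNA from 3 irradiated and 3 control cultures was read on Affymetrix mouse arrays. For every probe set the authors deposited a log2 value made with RMA (background correction, quantile normalization, summary of probes), per the submitters' processing notes, which name RMA, affy and limma. Tool versions and genome build: not given in the sources used here. The log base was inferred from the range of the values. RMA tends to understate changes of dim probe sets. Arrays have no read depth, and their number limits the precision.

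Of 45101 probe sets 64 array controls were left out. The platform annotation gave 1 symbol to 34945 of the 45037 tested, several to 932 and none to 9160. The brightest probe set stood for each of 18193 genes, and 18032 matched the RefSeq gene table by Entrez identifier, with 0 symbols changed. limma 3.58.1 (R 4.3.3; lmFit, eBayes) was fitted to all genes with the experiment as a block and Benjamini-Hochberg adjustment at 0.05, which left 2 residual degrees of freedom. The pairing comes from the design text. After subtraction of group means, the arrays of 1 experiment correlated at 0.087, -0.065 and -0.029 over probe sets. The scripts were tested on simulated data. Members and lists were chosen with earlier results of these data known, so summaries over them carry no p value.

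Values on every array are given for the 8 brightest members, the 8 with the largest difference, the 4 with the widest range and those whose groups do not overlap. Of the other pathway lists the 2 genes with the largest difference are named. Alternatives were a fit without the block, each experiment or array left out, averaged probe sets, a level filter, another variance prior, array weights, centring on the median gene and a test of all probe sets.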

Additional observations from a re-analysis of the deposited data

How the results depend on the processing

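No member was called in any of the 10 fits in which calls were counted, and neither was any other gene or probe set. The fit without the replicate block called 0 of 35 members and 0 of all 18193 genes. It gave a list mean of -0.063 with 27 members below 0. Over 14 alternatives the list mean ran from -0.097 (members at or above the median gene level) to -0.036 (without experiment 3) and stayed below 0. Relative to the median gene of each experiment it was -0.050. Leaving out 1 experiment at a time gave 10 to 17 members lower and 5 to 7 higher in every experiment kept. In 6 to 11 members all irradiated arrays that were kept lay below the controls. Members higher in every experiment kept numbered 7, 5 and 6 of 35 without experiments 1, 2 and 3. As shares these lay below those of all genes, which were 23.2%, 18.6% and 18.6%. These counts were added after seeing the data, and fewer experiments make each condition easier to meet. Of 105 alternative values of the 15 members given array by array, 3 changed sign: Iigp1 without experiment 2 (0.085; from -0.23 when 1 experiment at a time was left out), Oas1a without experiment 3 (0.035; from -0.055) and Tap1 with all its probe sets averaged (0.011). For Tap1 the averaged probe sets themselves differ in sign, and for the others the left-out experiment held the value furthest below 0. The number of experiments limits the precision, and no detection calls were used to judge signal over background for the 17 members below the median gene.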
